A study of Oryza sativa with 3 samples.

Results

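MicroRNAs are short regulatory RNAs, and the microRNA families shared by most land plants act largely on transcription factors and hormone signalling genes that shape roots, leaves and flowers. Described here are the 77 loci of 14 such families that the Agilent rice array carries (miR156, miR159, miR160, miR164, miR166, miR167, miR168, miR171, miR172, miR319, miR390, miR393, miR394 and miR396). The members were chosen by name: a probe belongs when its name starts with osa-miR and 1 of these family numbers. That gave 231 of the 42418 gene probes, namely 3 probes for each locus: 1 for the sequence 5' of the mature microRNA, 1 for the sequence 3' of it and 1 for the mature sequence itself. The probe names also give the chromosome of each locus, and the genome build behind them is not given in the sources used here.

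The RNA came from roots of dark-grown rice seedlings (Oryza sativa, cultivar TN67) aged 6 days. One set of roots was exposed to 1 mM vanadate and the other to water, with 3 biological replicates of each. In every replicate, RNA from 1 h and 3 h of exposure was pooled before labelling, so the values cover both times together. Vanadate RNA was labelled with Cy5 and water RNA with Cy3, each pair shared 1 array, and 0 arrays had the dyes exchanged, so a constant dye effect and the treatment cannot be told apart.

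In plants, a microRNA gene is transcribed into a long, capped and polyadenylated primary transcript. A Dicer-like enzyme cuts the stem-loop out of it and releases the mature microRNA, which an ARGONAUTE protein uses to find and silence matching mRNAs. The flanking probes are named for sequence on either side of the mature microRNA and the mature probes for the sequence of the short product. Mature sequences of a family are often nearly identical, so mature probes of related loci may report the same RNA. The RNA was amplified by in vitro transcription before labelling, per the labels, and how far that step copies such short RNAs was not tested, so a mature probe's value may not be that of the short product. In whole roots, fewer cells of a type and less RNA per cell cannot be told apart.

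All ratios are log2 of vanadate over water, so that a negative value is a lower level under vanadate, and values on single arrays are listed in the order of replicates 1, 2 and 3. Ratios correlated between arrays over all tested probes at Pearson's r of 0.89 to 0.93, as a description over probes that share arrays. Gene spots well above background made up 73.7% to 76.1% in the vanadate channel and 69.0% to 75.3% in the water channel, and 0 were saturated. Negative control spots had a median intensity of 67, 68 and 62 in the vanadate channel, against 160, 154.5 and 89 in the water channel, and the part of this gap in the ratios of dim probes was not tested. Both listed root marker loci were above background in both channels of all 3 arrays, as was 1 of 3 listed green-tissue loci, while the other two were on 1 or 2 arrays per channel. With 3 arrays, precision is limited by their number.

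Of the 231 probes, 87 passed the detection filter, under which 2 or more arrays had to show a signal clear of background in vanadate or water. They covered 55 of the 77 loci and 12 of the 14 families. By type, 37 of 77 probes for the 5' side were tested, 37 of 77 for the 3' side and 13 of 77 mature probes. Among the 144 untested probes, 110 were above background on no array and 34 on 1 array. The loci of miR390, which starts the trans-acting siRNA pathway that restrains auxin response factors, and of miR394, which targets an F-box gene of the shoot meristem in Arabidopsis, were above background on 0 arrays, so no change could be measured for them.

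Under vanadate 13 of the 87 tested probes rose, 35 fell and 39 were not called (limma over all 31158 tested probes, adjusted p under 0.05). Of the microRNA probes 14.9% rose and 40.2% fell, against 28.4% and 20.8% of all tested probes, 49.3% of which were called in either direction. The median log2 ratio was -0.04 over the members, with -0.06, -0.01 and -0.10 on the single arrays, and 0.02 over all tested probes. Ratios spanned -1.75 to 0.67, and 6 probes (6.90%) were at least 2-fold lower and 0 at least 2-fold higher, against 1.51% and 8.15% of all tested probes. Of the 35 falls, 7 were of probes that passed the filter only through the water channel, and of 5 probes that passed only through the vanadate channel 0 rose in limma, also at an unadjusted p under 0.05. A separate fit, over probes above background in both channels of all arrays, held 71 of the members, of which 14 rose and 26 fell, with a median of 0.06; 39 of these calls were also made in the fit over all tested probes and 1 was not.

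**Figure D1:**
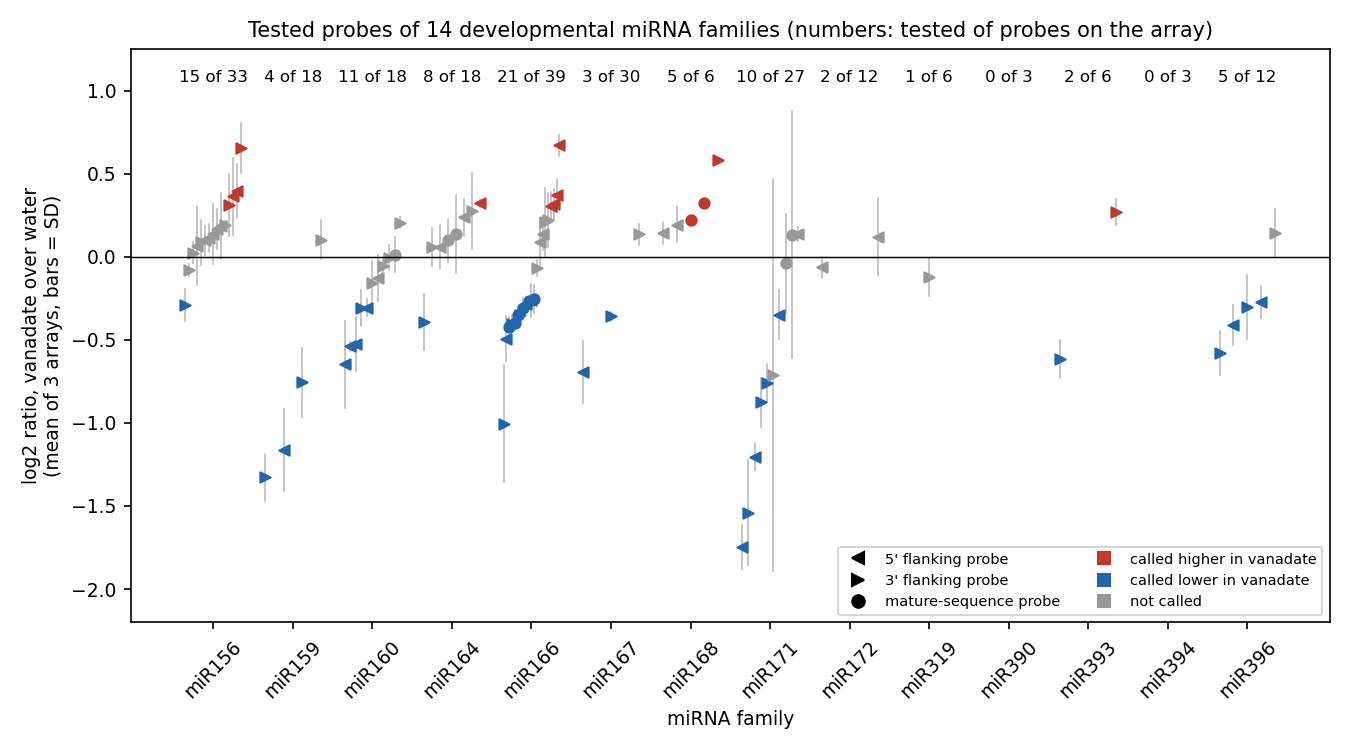
Mean log2 ratio of vanadate over water (y axis) for each of the 87 tested probes, by microRNA family (x axis); bars are the SD of 3 arrays, triangles are flanking probes, circles mature probes, and colour shows the limma call. Tested probes of miR159, miR160, miR167, miR171 and miR396 lie mostly below 0, those of miR168 above it, and those of miR166 on both sides. The families miR390 and miR394 have 0 tested probes.

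The measurements repeated closely for most members. The 2 spots of a probe differed by a median of 0.094 on the log2 scale (258 pairs), and the SD between arrays had a median of 0.11, against 0.14 over all tested probes. Of the 87 probes, 69 had the same sign on all 3 arrays, against 22690 of the 31158 probes tested on the whole array. Only 2 had an SD above 0.5, both of the miR171 family, and the largest among the other 85 was 0.35.

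The miR171 family silences GRAS transcription factors of the group that keeps meristem cells undifferentiated in Arabidopsis, and at miR171f it held the largest falls of the set. That rank depended on the processing: with the processed signals miR171f was at -2.04 on the 5' and -1.87 on the 3' side. The miR167d 5' probe, at -2.60, was then the lowest, and the miR171h 3' and 5' probes, at -2.39 and -2.10, were also below both. Of 10 tested probes from 5 of its 9 loci, 6 fell, 0 rose (also 0 at an unadjusted p under 0.05) and 4 were not called, with a median of -0.74. Its falls were 60% of its tested probes, against 20.8% of all tested probes, and its rises 0%, against 28.4%. For miR171f on chromosome 3, the 5' probe had normalised intensities of 501, 678 and 877 in vanadate roots, against 1716, 2055 and 3189 in water roots. Its ratios of -1.78, -1.60 and -1.86 averaged -1.75 ± 0.09 (SE, adjusted p = 2.51e-05), a 3.36-fold fall in limma. On the other side of this locus the 3' probe was at 469, 492 and 658 in vanadate roots and 1184, 1281 and 2462 in water roots, and its ratios were -1.34, -1.38 and -1.90, with a mean of -1.54 ± 0.13 (SE, adjusted p = 0.000199) in limma. Every vanadate value of both probes thus lay below every water value. The mature probe of this locus was dim, above background on 1 array in the vanadate channel and 2 in the water channel, with ratios of 0.16, 0.10 and -0.38 on both sides of 0 (adjusted p = 0.804 in limma).

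Within the family, miR171h and miR171c, both on chromosome 4, followed. For the miR171h 5' probe, intensities were 202, 162 and 189 in vanadate roots and 439, 394 and 437 in water roots, with ratios of -1.12, -1.28 and -1.21 and a mean of -1.20 ± 0.08 (SE, adjusted p = 8.03e-05) in limma, a 2.3-fold fall. Its 3' probe, dimmer in vanadate roots and above background there on 2 arrays, had ratios of -0.76, -0.87 and -0.64 and a mean of -0.76 ± 0.08 (SE, adjusted p = 0.000694) in limma. For miR171c the change was larger on the 3' side on every array: the ratios were -0.72, -1.01 and -0.89 (mean -0.88 ± 0.09, SE, adjusted p = 0.000478 in limma) on the 3' side, against -0.21, -0.50 and -0.33 (mean -0.35 ± 0.09, SE, adjusted p = 0.0191 in limma) on the 5' side. All arrays of these 4 probes were below 0. With the scanner software's processed signals the miR171h falls read -2.10 and -2.39 and those of miR171c -0.66 on the 5' and -1.74 on the 3' side. Without replicate 2 the call of the miR171c 5' probe was lost in limma (adjusted p = 0.154).

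Arrays disagreed at 2 other miR171 probes. One was the 3' probe of miR171g on chromosome 7, at 0.64, -1.26 and -1.52, high on replicate 1 and low on the other two. Its mean of -0.71 ± 0.39 (SE, adjusted p = 0.173 in limma) was not called. Its 2 spots differed by no more than 0.14 within any array, so the gap between arrays was far above that between spots. The mature probe of miR171h was likewise high on replicate 1 alone, at 0.97, -0.45 and -0.13 (adjusted p = 0.686 in limma), and on the other two arrays it rested on 1 spot each after removal of outlier spots. The 5' probe of miR171b, whose ratios of 0.10, 0.19 and 0.13 were all slightly above 0, was not called either (adjusted p = 0.178 in limma).

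**Figure D2:**
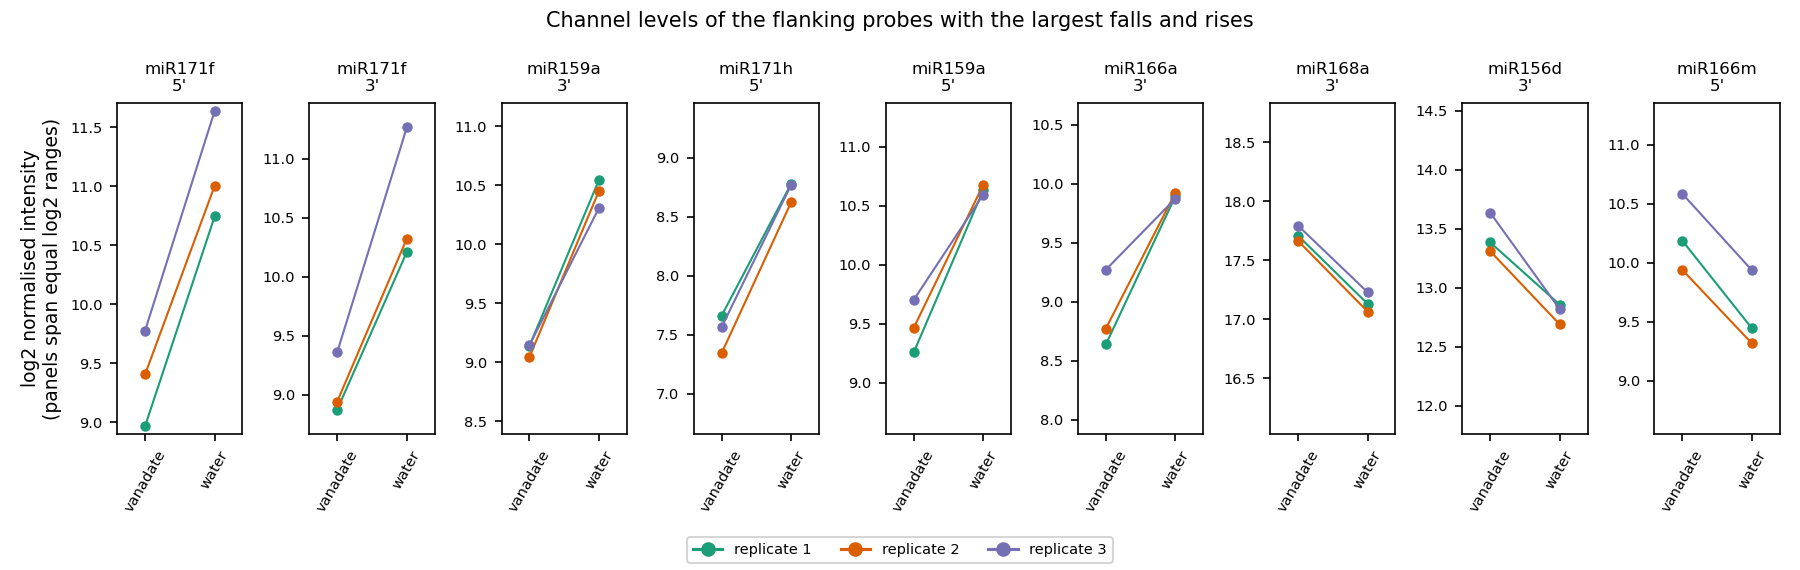
Channel levels of 9 flanking probes on each array, as log2 of the normalised intensity (y axis, with its own offset and the same span in every panel), vanadate left and water right; lines join the channels of 1 array. Every line slopes up towards water for the 5' and 3' probes of miR171f and miR159a, the 5' probe of miR171h and the 3' probe of miR166a, and down towards water for the 3' probes of miR168a and miR156d and the 5' probe of miR166m.

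The miR159 family silences GAMYB transcription factors, known from gibberellin signalling in cereal seeds and anthers. Only 4 probes from 3 of its 6 loci were tested, all of loci on chromosome 1. Of these 3 fell, or 75%, against 20.8% of all tested probes. For miR159a the 3' probe had intensities of 563, 527 and 565 in vanadate roots, against 1493, 1400 and 1267 in water roots, which gave ratios of -1.41, -1.41 and -1.17 and a mean of -1.33 ± 0.09 (SE, adjusted p = 8.03e-05) in limma. On its 5' side the intensities were 612, 707 and 833 in vanadate roots and 1591, 1641 and 1548 in water roots, with ratios of -1.38, -1.21 and -0.89 and a mean of -1.16 ± 0.11 (SE, adjusted p = 0.000357) in limma. The groups did not overlap at either probe, and the spread came mainly from the smaller fall on replicate 3. A fall was also measured at the 3' probe of miR159b, with ratios of -0.87, -0.88 and -0.52 and a mean of -0.75 ± 0.10 (SE, adjusted p = 0.00149) in limma, and again replicate 3 had the smallest change. The miR159b ratio was -1.46 with the processed signals. For miR159e the 3' probe averaged 0.10 ± 0.08 (SE, adjusted p = 0.34 in limma) and was not called.

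Families that act on auxin signalling are described next. The miR160 family silences the repressing auxin response factors and is known for its role in root cap formation in Arabidopsis. Of 11 tested probes from all 6 loci, 5 fell, 0 rose (1 at an unadjusted p under 0.05) and 6 were not called, with a median of -0.16. Falls thus made up 45.5% of them, against 20.8% of all tested probes, and rises 0%, against 28.4%. The 5' probe of miR160a on chromosome 2 had ratios of -0.56, -0.55 and -0.50 (mean -0.54 ± 0.08, SE, adjusted p = 0.00186 in limma), nearly equal on the 3 arrays. Its 3' probe, at -0.25, -0.23 and -0.43 (mean -0.31 ± 0.08, SE, adjusted p = 0.023 in limma), was above background in vanadate roots on 0 arrays. The size of its 1.24-fold fall is therefore uncertain. Setting the water mean against the higher of the probe's own vanadate level and the lowest detected level on each array gave the same 1.24-fold. That comparison thus gave no separate bound, and it is open to dye bias.

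At miR160d on chromosome 3 and miR160e on chromosome 7 only the 5' side was called. For miR160e, the 5' ratios were -0.92, -0.40 and -0.62 (mean -0.65 ± 0.11, SE, adjusted p = 0.00442 in limma), and the 3' probe, at -0.22, -0.25 and 0.00, was not called (adjusted p = 0.181 in limma). For miR160d, the 5' ratios were -0.70, -0.38 and -0.48 (mean -0.52 ± 0.09, SE, adjusted p = 0.00454 in limma), against 3' ratios of 0.17, 0.23 and 0.22, all above 0 but not called (adjusted p = 0.0625 in limma). The difference of 0.73 between these miR160d probes was the largest between flanks of any locus. The 5' probe of miR160c fell on all arrays, at -0.25, -0.34 and -0.33 (mean -0.31 ± 0.08, SE, adjusted p = 0.0175 in limma). Both miR160b flanks, the miR160f 3' probe and the miR160e mature probe averaged -0.12 to 0.01 and were not called. The processed signals put the 5' falls of miR160a, miR160c, miR160d and miR160e at -1.17, -1.02, -1.13 and -1.15. The call of the miR160a 3' probe was lost in limma without any 1 of replicates 1, 2 and 3 (adjusted p = 0.0536, 0.0775 and 0.0795), and that of miR160c without replicate 2 (adjusted p = 0.124).

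The miR167 family silences the activating auxin response factors, the counterparts of the miR160 targets. Only 3 probes from 2 of its 10 loci were tested. At miR167d on chromosome 7 both sides fell: the 5' ratios were -0.75, -0.49 and -0.84 (mean -0.69 ± 0.10, SE, adjusted p = 0.00173 in limma) and the 3' ratios -0.34, -0.39 and -0.35 (mean -0.36 ± 0.08, SE, adjusted p = 0.00923 in limma). Both probes passed the filter through the water channel, since in vanadate roots they were above background on 1 array, and the processed signals gave -2.60 and -1.88. Without replicate 2 the 3' call was lost in limma (adjusted p = 0.0735). Above background in both channels throughout, the miR167e 3' probe on chromosome 2 was at 0.18, 0.16 and 0.07 and not called (adjusted p = 0.192 in limma).

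In the miR393 family, which silences the auxin receptor F-box genes, the 2 loci went opposite ways. The 3' probe of the locus named miR393 on chromosome 1 fell, with ratios of -0.60, -0.73 and -0.51 and a mean of -0.61 ± 0.08 (SE, adjusted p = 0.00161) in limma. By contrast, miR393b on chromosome 4 rose on its 3' probe, with ratios of 0.19, 0.27 and 0.34 and a mean of 0.27 ± 0.08 (SE, adjusted p = 0.0311) in limma. No array of one probe reached the range of the other. The rise was the less firm of the pair: it lost its call without any 1 of replicates 1, 2 and 3 (adjusted p = 0.0515, 0.162 and 0.0979 in limma) and with the processed signals (0.12, adjusted p = 0.402).

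The miR164 family silences NAC transcription factors of the kind that set organ boundaries and promote lateral roots in Arabidopsis. It moved little: of 8 tested probes from all 6 loci 1 rose, 1 fell and 6 were not called. Either direction thus held 12.5%, against 28.4% rises and 20.8% falls over all tested probes. The 5' probe of miR164f on chromosome 5 had ratios of 0.30, 0.32 and 0.35, nearly equal on the 3 arrays, with a mean of 0.32 ± 0.08 (SE, adjusted p = 0.0136) in limma. At miR164a on chromosome 7 the 3' probe had ratios of -0.29, -0.30 and -0.59 and a mean of -0.39 ± 0.09 (SE, adjusted p = 0.0142) in limma. It was above background in vanadate roots on 0 arrays, so the size of its 1.31-fold fall is uncertain. Its ratio was -1.38 with the processed signals. At miR164d on chromosome 2 the 5' ratios of 0.14, 0.22 and 0.36 and the 3' ratios of 0.02, 0.32 and 0.47 were all above 0, but neither passed (adjusted p = 0.0535 and 0.0723 in limma). The other 4 probes averaged 0.06 to 0.14. The miR164f call was lost without replicate 2 (adjusted p = 0.0870 in limma).

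The miR166 family silences class III HD-ZIP transcription factors, which pattern the vascular cylinder of the root and the upper leaf face. It had the most tested probes of any family, 21 from 12 of 13 loci, of which 12 fell, 4 rose and 5 were not called. Falls were 57.1% of these, against 20.8% of all tested probes, and rises 19.0%, against 28.4%. Of its 9 tested 5' probes, 4 rose and 3 fell. The 6 tested 3' probes comprised 3 falls and 0 rises (also 0 at an unadjusted p under 0.05), and all 6 tested mature probes fell.

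The loci miR166a, miR166b and miR166g fell on both sides. At miR166a on chromosome 10, the 3' probe had intensities of 398, 437 and 618 in vanadate roots and 952, 971 and 938 in water roots, with ratios of -1.26, -1.15 and -0.60 and a mean of -1.004 ± 0.14 (SE, adjusted p = 0.00161) in limma, a 2.01-fold fall. Its 5' ratios were -0.65, -0.40 and -0.43, with a mean of -0.49 ± 0.09 (SE, adjusted p = 0.00464) in limma. Water values were alike on the 3 arrays of the 3' probe, and the vanadate value of replicate 3 was the highest. At miR166g on chromosome 12, the 5' ratios of -0.30, -0.32 and -0.23 and the 3' ratios of -0.32, -0.32 and -0.41 were close to each other (means -0.29 ± 0.08 and -0.35 ± 0.08, SE, adjusted p = 0.0224 and 0.0109 in limma). At miR166b on chromosome 6, the 5' ratios were -0.30, -0.33 and -0.15 and the 3' ratios -0.42, -0.35 and -0.44 (means -0.26 ± 0.08 and -0.40 ± 0.08, SE, adjusted p = 0.0376 and 0.00622 in limma). The miR166b probes passed through the water channel, with the vanadate channel above background on 1 array at the 5' probe and 0 at the 3' probe. The size of the 1.32-fold fall at this 3' probe is therefore uncertain. With the processed signals the miR166a 5' ratio was -1.26 and that of the miR166b 3' probe -1.72.

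Other miR166 loci rose on the 5' side. The largest rise of the whole set was that of the miR166m 5' probe on chromosome 8, with intensities of 1167, 983 and 1538 in vanadate roots, against 697, 638 and 981 in water roots. Its ratios of 0.74, 0.62 and 0.65 averaged 0.67 ± 0.08 (SE, adjusted p = 0.000844) in limma, a 1.59-fold rise. Replicate 3 was the brightest in both channels, and the lowest vanadate intensity only just exceeded the highest water intensity, while within each array vanadate was the higher. The 5' probes of miR166h on chromosome 2 and of miR166e and miR166c on chromosome 3 rose as well, at 0.37 ± 0.08, 0.32 ± 0.08 and 0.30 ± 0.08 (SE; adjusted p = 0.011, 0.019 and 0.0213 in limma), all above 0 on every array. With the processed signals the miR166e and miR166c calls were lost, at 0.27 and 0.20 (adjusted p = 0.0513 to 0.130 in limma). The miR166e call was also lost without replicate 2 or 3, and the miR166c call without replicate 1 or 2. With median centring the calls of miR166h, miR166e and miR166c were all lost. The miR166h 3' probe, at -0.11, -0.02 and -0.07, did not follow its 5' side and was not called (adjusted p = 0.492 in limma).

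Flanking and mature probes of 2 miR166 loci differed in sign. At miR166c, 5' ratios of 0.40, 0.22 and 0.29 and 3' ratios of 0.36, -0.03 and 0.29 stood against mature ratios of -0.25, -0.34 and -0.17 (mean -0.25 ± 0.08, SE, adjusted p = 0.0394 in limma). At miR166n on chromosome 3, the 3' ratios were 0.08, 0.18 and 0.40, not called (adjusted p = 0.0889 in limma), and the mature ratios -0.24, -0.28 and -0.27 (mean -0.26 ± 0.08, SE, adjusted p = 0.0279 in limma). The mature probes of miR166a, miR166b, miR166d and miR166f were at -0.32, -0.32 and -0.42, at -0.31, -0.25 and -0.37, at -0.41, -0.48 and -0.37 and at -0.39, -0.39 and -0.43. Their means were -0.35 ± 0.08, -0.31 ± 0.08, -0.42 ± 0.08 and -0.40 ± 0.08 (SE; adjusted p = 0.0109, 0.0178, 0.00538 and 0.00598 in limma). The 6 mature probes thus lay within a narrow band, -0.42 to -0.25, while the flanking means spanned -1.004 to 0.67. The mature ratios under the processed signals were -0.85 to -0.51, and with median centring the calls of miR166a, miR166b, miR166c and miR166n were lost (adjusted p = 0.0634 to 0.138 in limma). Whether these mature probes read 1 shared RNA was not tested, so they are not 6 independent measurements.

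Small miR166 changes depended on single arrays. Without replicate 1, 6 of the 16 calls were lost in limma (adjusted p = 0.0549 to 0.113), without replicate 2, 9 (adjusted p = 0.0575 to 0.264), and without replicate 3, 3 (adjusted p = 0.0535 to 0.0657). The falls of both miR166a flanks and of the miR166b 3' probe and the rises of miR166m and miR166h were among those that stayed called in all 3 cases.

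**Figure D3:**
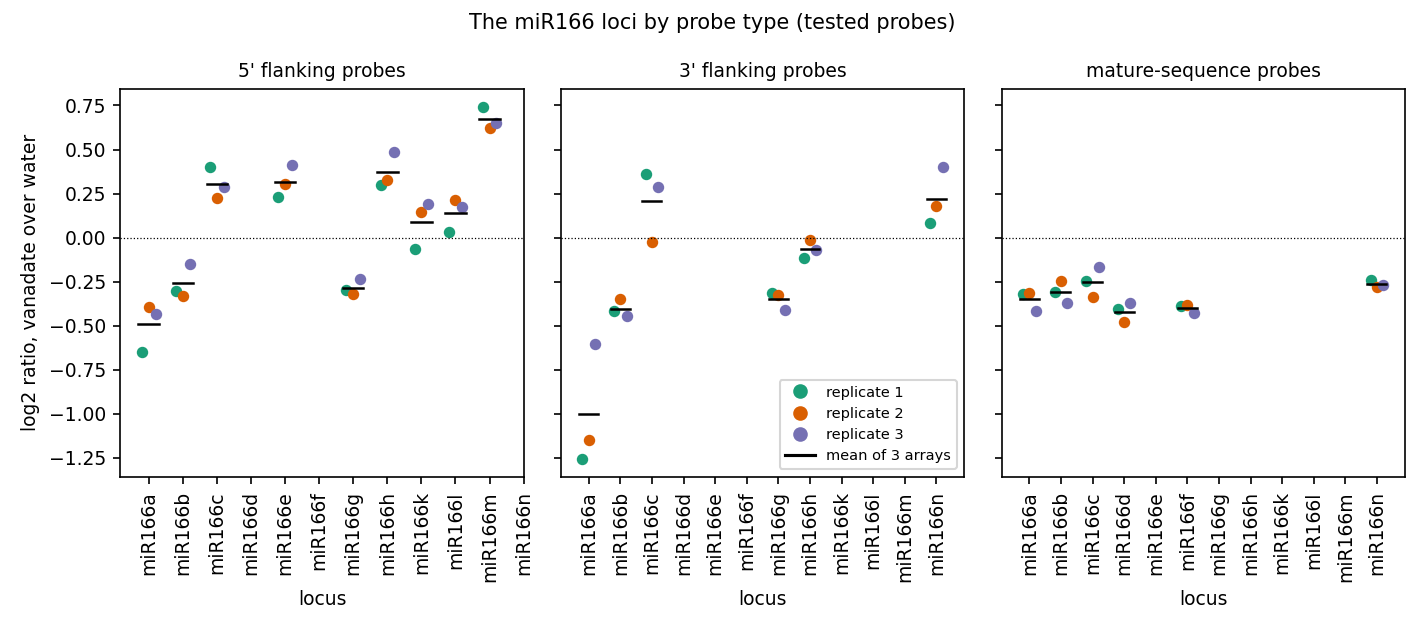
Log2 ratio of vanadate over water (y axis) on each of 3 arrays for the tested miR166 probes, by locus (x axis) and probe type (panels); black bars are means. The 5' probes range from miR166m, above 0, to miR166a, below it, and all 6 mature probes lie below 0 on every array.

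The miR396 family silences growth-regulating factors, which promote cell proliferation in growing organs. Of 5 tested probes from 3 of 4 loci 4 fell, 0 rose (also 0 at an unadjusted p under 0.05) and 1 was not called. Falls were 80% of these few probes, against 20.8% of all tested probes. At miR396b on chromosome 6, the 3' ratios were -0.58, -0.71 and -0.45 (mean -0.58 ± 0.09, SE, adjusted p = 0.00235 in limma) and the 5' ratios -0.54, -0.31 and -0.38 (mean -0.41 ± 0.08, SE, adjusted p = 0.00849 in limma). At miR396d on chromosome 4, the 3' ratios were -0.08, -0.42 and -0.41 (mean -0.30 ± 0.10, SE, adjusted p = 0.0415 in limma) and the 5' ratios -0.20, -0.38 and -0.24 (mean -0.27 ± 0.08, SE, adjusted p = 0.0322 in limma). All arrays of these 4 probes were below 0, with the smallest miR396d changes on replicate 1. The miR396c 3' probe on chromosome 2, at 0.30, 0.03 and 0.10, was not called (adjusted p = 0.218 in limma). The miR396b 5' probe was above background in vanadate roots on 1 array. With the processed signals the miR396b ratios were -1.62 on the 5' and -1.35 on the 3' side. The miR396d 3' call was lost without replicate 2 or 3 (adjusted p = 0.220 and 0.114 in limma), and the 5' call without any 1 of replicates 1, 2 and 3 (adjusted p = 0.0581, 0.241 and 0.0529 in limma).

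The miR319 family silences TCP transcription factors of leaf growth. Its 1 tested probe, for the 3' side of miR319b on chromosome 1, was at -0.24, -0.01 and -0.11 and not called (-0.12 ± 0.08, SE, adjusted p = 0.269 in limma).

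The families miR156 and miR172 form the pair that times the passage from the juvenile to the adult phase, miR156 by silencing SPL transcription factors and miR172 by silencing AP2-type ones. All 11 miR156 loci gave tested probes, 15 in number, of which 4 rose, 1 fell and 10 were not called, with a median of 0.14. The rises were 26.7% of its tested probes, close to the 28.4% of all tested probes, and the falls 6.67%, against 20.8%. The 3' probe of miR156d on chromosome 2 rose most, with intensities of 10683, 10147 and 12721 in vanadate roots, against 7407, 6596 and 7212 in water roots. Its ratios of 0.53, 0.62 and 0.82 averaged 0.66 ± 0.09 (SE, adjusted p = 0.0016) in limma, a 1.58-fold rise, and each vanadate value was above every water value. At miR156e on chromosome 4 both sides rose, with 5' ratios of 0.25, 0.36 and 0.58 (mean 0.40 ± 0.09, SE, adjusted p = 0.0134 in limma) and 3' ratios of 0.13, 0.30 and 0.50 (mean 0.31 ± 0.10, SE, adjusted p = 0.0363 in limma). It was the only locus of the 22 with both flanks tested that was called higher on both.

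The miR156h 5' probe on chromosome 6 rose as well, at 0.12, 0.39 and 0.58 (mean 0.36 ± 0.11, SE, adjusted p = 0.0295 in limma), while its 3' probe, at -0.04, 0.23 and 0.08, was not called (adjusted p = 0.437 in limma). On chromosome 9 the miR156g 3' probe fell, at -0.18, -0.35 and -0.34 (mean -0.29 ± 0.08, SE, adjusted p = 0.0262 in limma). The 10 probes without a call averaged -0.08 to 0.19. The calls of the miR156d 3' and miR156e 5' probes held without each replicate in turn. The calls of the miR156e 3', miR156g 3' and miR156h 5' probes were lost without replicate 2 (adjusted p = 0.0986 to 0.170 in limma) and without replicate 3 (adjusted p = 0.0718 to 0.128 in limma). With the processed signals both miR156e calls and that of miR156h were lost (adjusted p = 0.0842 to 0.162 in limma).

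For miR172, 2 probes from 2 of 4 loci were tested and 0 were called by limma, also 0 at an unadjusted p under 0.05. The 5' probe of miR172a on chromosome 9 was at -0.07, 0.06 and 0.38, with replicate 3 apart from the other two (mean 0.12 ± 0.11, SE, adjusted p = 0.372), and that of miR172d on chromosome 2 averaged -0.06 ± 0.08 (SE, adjusted p = 0.525).

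The miR168 family silences ARGONAUTE1, the protein that carries most plant microRNAs, and so sits within the microRNA pathway itself. Both of its loci lie on chromosome 2, and of 5 tested probes 3 rose, 0 fell (also 0 at an unadjusted p under 0.05) and 2 were not called. Rises were 60% of these few probes, against 28.4% of all tested probes. For miR168a the 3' probe had intensities of 214160, 207745 and 227178 in vanadate roots and 143467, 137117 and 153593 in water roots. Its ratios of 0.58, 0.60 and 0.56 were nearly equal on the arrays and averaged 0.58 ± 0.08 (SE, adjusted p = 0.00132) in limma, a 1.5-fold rise without overlap of the groups. Its size depended on the processing, at 0.33 with the processed signals and 0.999 with median centring in place of loess. The 5' probe of miR168a, at 0.13, 0.22 and 0.08, was not called (adjusted p = 0.172 in limma). The mature probes of miR168a and miR168b rose by less, at 0.29, 0.34 and 0.34 and 0.23, 0.21 and 0.24, with means of 0.32 ± 0.08 (SE, adjusted p = 0.0136) and 0.22 ± 0.08 (SE, adjusted p = 0.0473) in limma. The miR168b mature call was lost without any 1 replicate (adjusted p = 0.111, 0.210 and 0.112 in limma for replicates 1, 2 and 3), and the miR168a mature call without replicate 2 (adjusted p = 0.0977 in limma). The miR168b mature ratio under the processed signals was 0.12 and not called (adjusted p = 0.245 in limma).

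Across families, 22 loci had both flanking probes tested. Both fell at 11 (miR159a, miR160a, miR166a, miR166b, miR166g, miR167d, miR171c, miR171f, miR171h, miR396b and miR396d), both rose at miR156e, and 1 of the 2 was called at 6. Taken singly, 28.4% of all tested probes rose and 20.8% fell. A share for paired probes was not computed outside these families, so whether these locus counts are unusual is not known. The 2 flanks were called in opposite directions at 0 loci in limma, and at 1, miR160d, at an unadjusted p under 0.05. The 5' and 3' ratios had the same sign at 20 of the 22 and correlated at Pearson's r of 0.82 over these loci, as a description, since the 2 probes of a locus share their arrays and RNA. The median gap between the flanks was 0.19 on the log2 scale. This exceeded the median gap of 0.094 between spots of 1 probe, and the 7 largest gaps, 0.44 to 0.73, were those of miR160d, miR160e, miR166a, miR166h, miR168a, miR171c and miR171h.

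**Figure D4:**
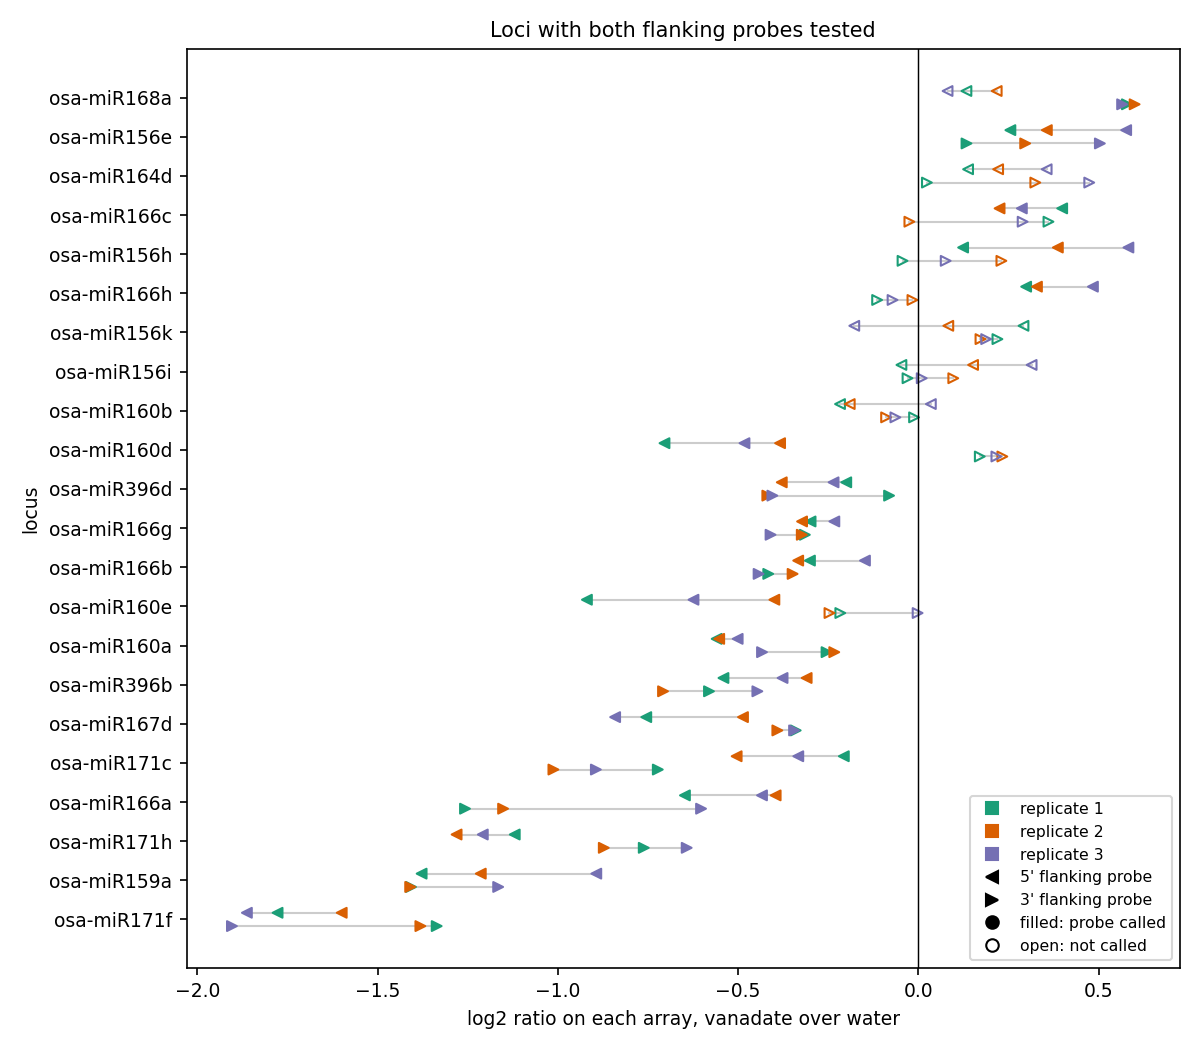
Log2 ratio of vanadate over water (x axis) on each array for the 5' and 3' flanking probes of the 22 loci with both tested (y axis, ordered by the mean of both flanks); filled symbols are probes called by limma. The points of miR171f, miR159a and miR171h lie farthest below 0 on both sides, and at miR160d the flanks lie on either side of 0.

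The array also holds 279 microRNA probes of other families, for 93 loci, of which 96 were tested. Against the 13 rises and 35 falls of the developmental families, with their median of -0.04, the other families had 28 rises (29.2%) and 9 falls (9.38%), with a median of 0.13. Over all tested probes 28.4% rose and 20.8% fell, so the share of rises in the other families was close to that of all probes. The range was -1.75 to 0.67 in the developmental families and -1.05 to 1.18 in the other families. The difference between the 2 sets was not tested. Their medians on the arrays were -0.06, -0.01 and -0.10 in the developmental families and 0.15, 0.08 and 0.19 in the other families.

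Genes that these families act on, and genes that make or use microRNAs, were followed through a list of 68 locus IDs taken from background knowledge. The files used here do not annotate these IDs, so only counts over the list are given and the membership is unchecked. Each locus was read by 1 probe, its tested probe of highest mean intensity. Some loci had further tested probes, up to 6 in all, which these counts leave out. Of 57 tested loci 7 rose, 13 fell and 37 were not called in limma, with ratios of -0.79 to 0.96 and a median of -0.08. This compares with 28.4% rises and 20.8% falls over all tested probes. With the processed signals the list had 4 rises and 24 falls. Of the 9 tested loci listed for making or using microRNAs 0 were called, with 1 lower at an unadjusted p under 0.05. Among loci listed as miR172 targets 3 of 4 fell, and among those of miR156 3 of 9 rose and 1 fell. Those listed for miR166 comprised 1 fall among 5, for miR171 1 fall among 3, for miR160 0 calls among 3 (1 lower at an unadjusted p under 0.05), and for miR396 2 rises and 1 fall among 7. The 1 locus listed for miR159 fell, the 4 for miR164 comprised 1 rise and 2 falls and held both ends of the range, the 4 tested for miR167 1 rise and 1 fall, and the 4 for miR390 and its trans-acting siRNAs 2 falls. Among loci listed for miR319 (2), miR393 (1) and miR394 (1), 0 were called, also 0 at an unadjusted p under 0.05.

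Of the 48 calls, 0 reversed direction under 12 other ways of processing. A reversal could not occur where the same ratios were refitted: no filter, the strict filter, an intensity trend in eBayes, a slide block and separate channels. Leaving out 1 replicate could not reverse a call either, since each called probe had the same sign on all 3 arrays. The authors' values nearly repeat the processed signals, so those are not separate checks of direction. Under each way that tested their probe (the strict filter leaves out dim ones) 17 calls held, namely the rises of the miR156d and miR168a 3' probes and 15 falls. These falls were those of both flanks of miR159a, miR166a, miR171f and miR171h, of the 5' probes of miR160a, miR160d, miR160e and miR167d, and of the 3' probes of miR159b, miR171c and miR393. With the processed signals 7 probes rose and 39 fell, and the authors' deposited values gave the same counts. Rises thus made up 15.2% of the calls there, against 27.1% as reported, and over all tested probes 41.4% against 57.7%. The processed signals moved the median of all tested probes by -0.14 on the log2 scale. With the channels treated as separate samples, 2 probes rose and 16 fell. Of the 48 calls, 7 were lost with the processed signals, 24 with median centring in place of loess, 30 with separate channels, and 10, 22 and 11 without replicates 1, 2 and 3.

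**Figure D5:**
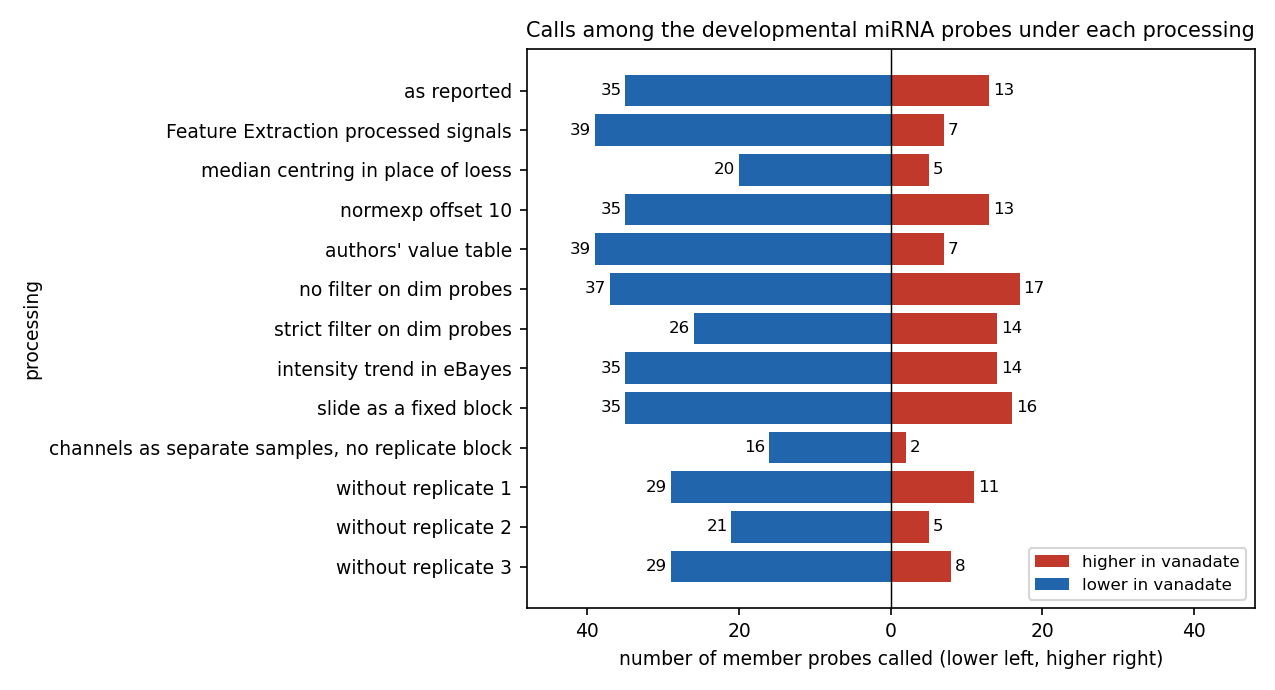
Number of developmental microRNA probes called higher (right, red) or lower (left, blue) in vanadate (x axis) under each way of processing (y axis). Falls outnumber rises in every row, with 13 rises and 35 falls as reported and 2 rises and 16 falls when the channels are treated as separate samples.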

How the data were processed

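The members and gene lists were chosen with earlier results of these data known. Per the file headers, the deposited scanner files hold spot intensity values from Agilent Feature Extraction 10.7.1.1, and its processed signals are background-subtracted and dye-normalized intensity values. The log2 ratios in the value table deposited by the authors matched log2 of processed red over green within 0.001 for at least 99.955% of the 42415 matched probes. The table is not centred, with medians of -0.19, -0.21 and -0.05.

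Median signals were corrected here with normexp (offset 50; the files used here give median and not mean signals) and normalized by loess within arrays (limma 3.58.1, R 4.3.3), with control spots at weight 0. Outlier-flagged spots (172, 129 and 958 of 43144) were dropped and spots of a probe averaged. Mean ratios were tested against 0 with lmFit and eBayes, two-sided, with Benjamini-Hochberg adjustment over 31158 probes at 0.05. SE is limma's moderated standard error. Channel levels are intensities after loess and Aquantile. Replicates 1 and 2 shared a slide and scan day. The test was checked on simulated ratios with independent noise and no dye effect, so that check does not cover dye bias. Named with every array are loci called alike on both flanks, each family's largest change and called mature probes; other members named were chosen after their values were seen. The reference table matched 0 of the array's locus IDs.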

Additional observations from a re-analysis of the deposited data

How the results depend on the processing

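Among the member probes, the rises numbered 7 under both the processed signals and the value table, 5 with median centring in place of loess, 2 with the channels as separate samples and 5 to 11 without 1 replicate. The falls numbered 20 with median centring, 16 with separate channels, 21 to 29 without 1 replicate and 17 with 1 flanking probe per locus, an alternative added after seeing the data. The median of the members was -0.22 under both the processed signals and the value table, 0.061 under the strict filter on dim probes and 0.063 at 1 flanking probe per locus, so its sign is not settled. Loci called higher on both flanks numbered 0 with the processed signals, the value table and separate channels, 2 with no filter and with slide as a block, and 0 to 1 without 1 replicate. Loci lower on both numbered 5 with median centring, 6 with the strict filter, 4 with separate channels and 5 to 9 without 1 replicate. The other microRNA probes had a median of 0.039 with the processed signals and the value table, 0.071 with median centring and 0.053 with no filter. Their rises numbered 13 with median centring, 16 with the strict filter, 10 with separate channels and 16 to 21 without 1 replicate, and their falls 5, 5 and 0 under those same first 3 settings. Over all probes the median was -0.12 with the processed signals and the value table, -0.055 with median centring, -0.0013 with no filter and -0.0070 with the strict filter. Rises over all probes numbered 5706 with median centring and 4638 with separate channels, and falls 2087 with separate channels and 4052 to 5334 without 1 replicate. In the target list, rises numbered 4 with the processed signals and the value table and 2 with median centring and with separate channels. Falls there numbered 24, 24 and 3 with the processed signals, the value table and separate channels, and 7 to 9 without 1 replicate. Its median was -0.28 with the processed signals and the value table, -0.17 with median centring, -0.062 with no filter and -0.10 to -0.039 without 1 replicate. The cause of these shifts was not tested. The replicates are paired on the arrays, so treating the channels as separate samples is the fit with no replicate block, and it kept 18 of the 48 member calls. Without replicate 3 the fit rests on 1 slide, where 8 members rose and 29 fell. The family medians changed sign under 2 of 12 alternatives for miR167, 4 for miR172 and 1 each for miR319 and miR393, and under 0 for the other 8 families. Signal near background limits the 144 untested probes and the size of the falls of dim probes.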

Other observations

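Of the 144 untested probes 110 were above background on no array, 34 on 1 array, and 1 lacked a value. With no filter, the mean log2 ratios of those with values ran from -0.44 to 0.36, with a median of -0.0098. In that fit 5 of them were called higher and 2 lower by limma.

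The 3' probe of miR164b on chromosome 5 was bright on every array but uneven between them in both channels. Its normalised intensities were 129304, 155033 and 22604 in vanadate roots and 127415, 136329 and 23092 in water roots, so replicate 3 was far below the other two in both. The ratios, at 0.02, 0.19 and -0.03, stayed near 0.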
